A study of Homo sapiens with 6 samples.

Results

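Bidirectional promoter regions were examined in Omni-ATAC libraries of MM.1S, an established human multiple myeloma cell line. Omni-ATAC uses a transposase to cut open chromatin, so that a peak marks an accessible stretch of DNA. A member was a pair of protein-coding genes on opposite strands that point away from each other, with the 5' ends of their gene records at most 1000 bp apart. The region ran from 500 bp before the left start to 500 bp past the right start. The GENCODE release 44 annotation of hg38 gave 887 such pairs, which held 1710 of 20033 protein-coding genes, or 8.54%. The rule used the annotation alone, and no measured value entered it.

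The libraries were 3 of cells treated with 120 nM CB-6644, an inhibitor of the RUVBL1/2 ATPases, for 72 h and 3 of cells given the solvent DMSO. Live cells were sorted by flow cytometry before the assay, so the data describe cells that survived the treatment. All libraries came from the same cell line, and nothing in the labels says that replicates were separate cultures. p-values therefore measure only the spread between these libraries, which may be technical.

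In a bidirectional promoter, a shared nucleosome-free stretch carries the start sites of a leftward and a rightward gene, and RNA polymerase II is loaded in both directions. Such promoters are typically rich in CpG dinucleotides, and many serve genes for DNA repair, mitochondria and the core histones. RUVBL1 and RUVBL2 form a ring-shaped complex that works in chromatin remodellers such as INO80 and SRCAP, in the TIP60 acetyltransferase and in the R2TP chaperone.

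Peak lists carry no sequencing depth, so the depth is unknown here. The lists held 58563 to 79020 peaks. CB-6644 replicate 2 and DMSO replicate 1 had shorter peaks than the rest, with a shortest peak of 65 and 91 bp against 131 to 152 bp and a median of 137 and 196 bp against 318 to 378 bp. They are called the short-fragment libraries here, and there was 1 in each group. The name, and the split called the fragment set, rest on peak length alone, as no label gives a fragment length. Peaks at the starts of cell type markers fitted the label in part: 6 of 9 plasma cell markers, among them IRF4, XBP1 and SDC1, had a peak in all 6 libraries, POU2AF1 in 4 and SLAMF7 in 5, and PRDM1 had none. The T cell, monocyte and epithelial markers examined had no peak in any library. HBB, a red cell gene, had a peak in all 6 libraries and PDGFRB, a stromal gene, in 5, while COL1A1 and COL1A2 had none.

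The distance between the paired starts ran from 1 to 995 bp, with a median of 132 bp and quartiles of 69 and 248.5 bp. It was at most 100 bp in 342 pairs, over 100 and up to 300 bp in 375, over 300 and up to 600 bp in 109 and over 600 bp in 61. The pairs just inside the limit were NEMP1/NAB2 at 980 bp, UBQLN4/LAMTOR2 at 984, APBA3/MRPL54 at 990, MS4A6A/MS4A4A at 991 and PSMB1/TBP at 995 bp. Just outside it was TXNDC12/BTF3L4 at 1008 bp. Some pairs shared a gene: 63 genes stood in 2 or more pairs, 80 pairs held a readthrough gene, and the 887 intervals collapsed into 824 groups that did not overlap. Pairs that share a peak are not separate observations.

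The stretches between the starts show what these regions are made of, and 7 are printed from hg38 on the + strand. They are 2 histone pairs with the core promoter elements of that family, the pair that holds the drug target RUVBL2, TK1/AFMID as a textbook pair, THYN1/ACAD8 with the smallest p for a difference, PNPLA8/DNAJB9 with a very strong peak, and PLCZ1/CAPZA3 with no peak. Capitals mark matches on either strand to consensus letters, each named here with the factors that read it. The letters CCGGAAG belong to the ETS activators, GCGCATGC to NRF1, and the CCAAT-box letters CCAATCA to the trimer NFY. The GC box GGGCGG is read by SP1 and its relatives, TGACGTCA is the CRE of the CREB family, AAGATGGC belongs to YY1 and CTCGCGAG to ZBTB33. The letters GCGGGAA belong to the E2F cell cycle factors, and ACTACAA was searched for the promoter factor ZNF143. The E-box of the MYC and USF families is CACGTG, and the TATA box of the core promoter was searched as TATAAA. For the factors of distal sites, AANNGAAA stood for the IRF family, TGATGNAA for the ATF4-CEBP composite and TGCTGAC for the MAF family. The E-box of TCF4 is CAGGTG, the insulator protein CTCF was searched as CCACNAGG, and the octamer of the OCT factors is ATTTGCAT.
H2BC11/H2AC11, chr6:27132796-27133042: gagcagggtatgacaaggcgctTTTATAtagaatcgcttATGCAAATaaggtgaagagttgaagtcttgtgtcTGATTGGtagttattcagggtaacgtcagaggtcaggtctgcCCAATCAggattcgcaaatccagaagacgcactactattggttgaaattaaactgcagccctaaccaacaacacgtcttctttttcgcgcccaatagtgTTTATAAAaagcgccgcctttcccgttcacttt
H2BC21/H2AC20, chr1:149886683-149886917: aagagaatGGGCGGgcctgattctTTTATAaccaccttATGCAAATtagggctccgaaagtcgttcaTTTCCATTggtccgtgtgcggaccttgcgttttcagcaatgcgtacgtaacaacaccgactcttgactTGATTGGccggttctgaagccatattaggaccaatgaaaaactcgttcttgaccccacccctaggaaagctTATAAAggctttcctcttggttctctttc
GYS1/RUVBL2, chr19:48993311-48993561: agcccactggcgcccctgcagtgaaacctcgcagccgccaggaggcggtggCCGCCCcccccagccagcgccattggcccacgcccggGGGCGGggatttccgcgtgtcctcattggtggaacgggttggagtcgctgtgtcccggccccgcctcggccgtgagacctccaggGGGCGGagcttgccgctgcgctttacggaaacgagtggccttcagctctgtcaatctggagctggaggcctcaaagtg
TK1/AFMID, chr17:78187234-78187357: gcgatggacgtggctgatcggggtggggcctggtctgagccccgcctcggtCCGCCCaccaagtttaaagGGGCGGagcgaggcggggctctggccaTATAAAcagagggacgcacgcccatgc
THYN1/ACAD8, chr11:134253371-134253547: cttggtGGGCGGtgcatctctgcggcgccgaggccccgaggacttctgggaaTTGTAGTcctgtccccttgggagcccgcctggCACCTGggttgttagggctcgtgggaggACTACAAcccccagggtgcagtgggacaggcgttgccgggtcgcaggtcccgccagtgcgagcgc
PNPLA8/DNAJB9, chr7:108569667-108569866: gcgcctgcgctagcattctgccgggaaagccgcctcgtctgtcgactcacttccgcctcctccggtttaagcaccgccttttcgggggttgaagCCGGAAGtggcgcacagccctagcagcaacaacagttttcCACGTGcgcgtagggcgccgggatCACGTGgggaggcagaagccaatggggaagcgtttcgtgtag
PLCZ1/CAPZA3, chr12:18738101-18738118: gacctcatcaggaggctc

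H2BC11/H2AC11 held 3 TATA, 2 NFY and 1 octamer match in 247 bases at 43.7% GC, with TATA letters near each end. H2BC21/H2AC20 held 2 TATA, 1 NFY, 1 octamer, 1 SP and 1 IRF match in 235 bases. GYS1/RUVBL2 held 3 SP matches in 251 bases at 69.3% GC. TK1/AFMID held 2 SP and 1 TATA match. THYN1/ACAD8 held 2 matches to the ZNF143 letters, and PNPLA8/DNAJB9 held 1 ETS and 2 E-box matches. PLCZ1/CAPZA3 held none in its 18 bases. A match is a string of letters and not a measured binding site.

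Divergent coding starts were open far more often than other starts. To compare windows of equal length, 500 bp were taken on each side of every protein-coding start. A peak overlapped 91.3% to 92.4% of the 1706 starts in pairs across the libraries, 81.2% to 82.6% of the 1418 starts with a divergent lncRNA start within 1000 bp, and 50.9% to 53.5% of the 16872 starts with neither. Pairs exceeded starts with neither by 39.5 percentage points on average (SD 0.577 over 6 libraries), and those with a divergent lncRNA by 9.78 points (SD 0.328). Both differences were positive in 6 of 6 libraries, and no test was made on shares of members. Within the pairs the share was 91.3% to 91.6% with CB-6644 and 91.9% to 92.4% with DMSO.

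**Figure D1:**
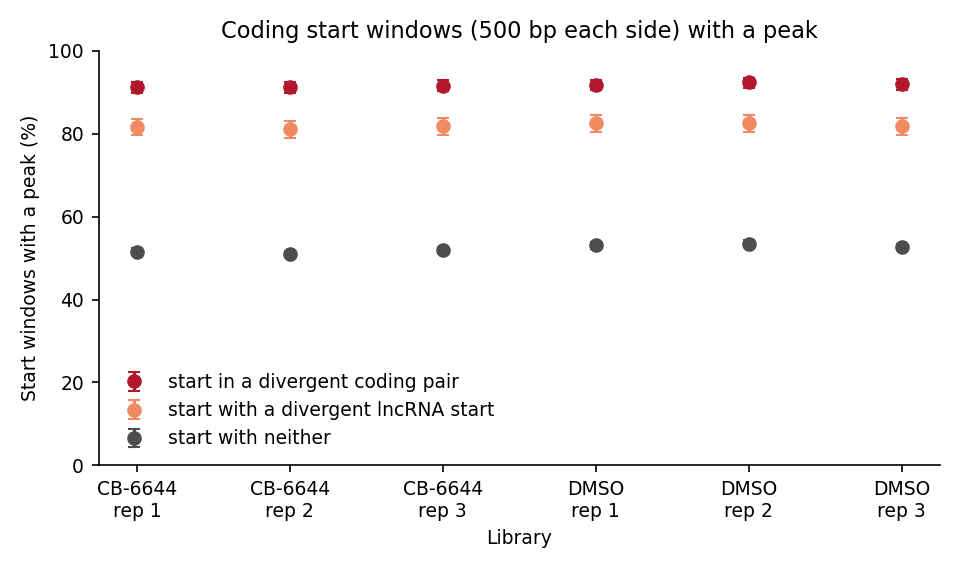
Share of protein-coding start windows with a peak (y axis, percent) in each library (x axis), for starts in divergent coding pairs, starts with a divergent lncRNA start and starts with neither; bars are 95% Wilson intervals, for counting error only. The pairs lie between 91.3% and 92.4%, the lncRNA class between 81.2% and 82.6% and the remaining starts between 50.9% and 53.5%. The intervals count each start as separate, though both starts of a pair often share a peak.

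Peaks at paired starts were also stronger. Strength was ranked within a library as the percentile of the peak caller's -log10 p. The median percentile of the strongest peak was 90.2 to 92.8 at paired starts and 84.2 to 87.7 at starts with neither, higher in 6 of 6 libraries by 5.68 points on average. The median peak was wider by 93.7 bp on average, again in 6 of 6 libraries. Against starts with a divergent lncRNA the gap was 1.63 percentile points, positive in 6 of 6 libraries, and 21.9 bp in width, which ran from -10 to 45 bp and was positive in 4 of 6. With negative positions upstream, the median summit lay at -66 to -58 bp from a paired start. It lay at -50.5 to -45 bp where the divergent partner was a lncRNA and at -20 to -8 bp where there was none. Where both starts of a pair take the same summit, their positions add up to minus the distance between the starts, wherever the summit lies. The median distance was 132 bp, so the position at paired starts partly follows from the pair rule.

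The strongest summit often sat in the space between the genes. Among pairs with a peak, 53.0% to 57.4% had it between the starts, a space that made up 14.7% to 14.8% of the region on average. The share depended on the distance between the starts. It was 30.4% to 33.0% at up to 100 bp, 66.7% to 74.1% up to 300 bp, 67.0% to 78.0% up to 600 bp and 65.5% to 73.2% beyond. The median distance of the summit from the midpoint was 53.5 to 58.75 bp over all pairs. The summit moved by a median of 48 bp between the lowest and highest of the 6 libraries, and by at most 100 bp in 647 of 814 pairs. It lay between the starts in all 6 libraries for 327 pairs and in none for 236.

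The groups did not differ in this respect beyond the spread between libraries. The share between the starts was 55.3% ± 2.17 (SD, n = 3) with CB-6644 and 56.2% ± 0.632 (SD, n = 3) with DMSO, and the ranges overlapped. A peak that ran over both starts was found at 81.7% ± 10.7 (SD, n = 3) of pairs with CB-6644 and 86.6% ± 4.40 (SD, n = 3) with DMSO. That share was lower in the short-fragment libraries, at 69.3% in CB-6644 replicate 2 and 81.5% in DMSO replicate 1, against 87.5% to 89.1% in the other 4 libraries. At distances over 600 bp it was 0% to 30.9%, and 43.6% to 71.7% of those pairs had a peak over only 1 of the starts.

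**Figure D2:**
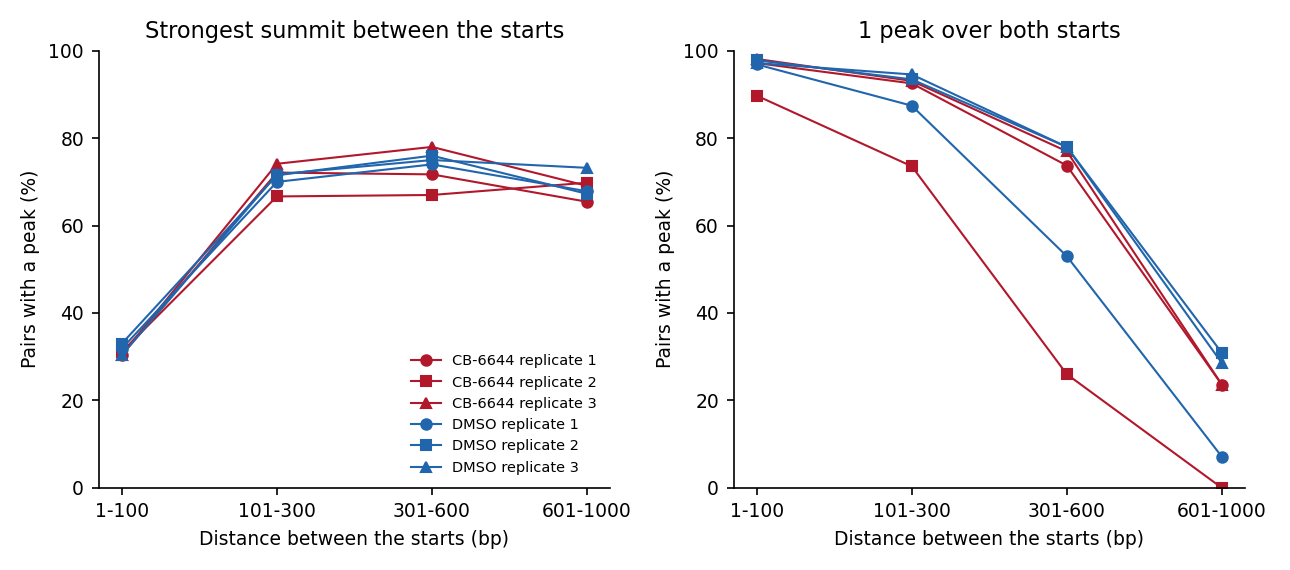
Share of pairs with a peak (y axes, percent) whose strongest summit lies between the starts (left) and whose starts lie under 1 peak (right), by distance between the starts in bp (x axes); each line is a library, red for CB-6644 and blue for DMSO. The left share is 30.4% to 33.0% at up to 100 bp and 65.5% to 78.0% beyond, and on the right CB-6644 replicate 2 and DMSO replicate 1 run below the other 4.

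Letters of several promoter factors were found around the summits of pairs. Within 100 bp of the strongest summit on each side, the ETS letters occurred at 24.6% of 830 pairs, 14.997% of 10482 other coding starts and 2.02% of 78047 distal regions. ETS proteins are a family of activators with a winged helix. NFY, the CCAAT-box factor, gave 12.4%, 8.07% and 2.49% in the same order, and NRF1, an activator of nuclear genes for mitochondria, 5.78%, 4.04% and 0.438%. The ZNF143 letters gave 5.54%, 2.96% and 2.02%. SP letters, bound by SP1 and its relatives, were as common at other starts, at 69.3% and 68.3%. TATA letters stood at 2.29% of pairs and 2.04% of other starts.

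Letters of the factors of distal sites were less common at pairs than at distal regions. The IRF letters stood at 7.47% of pairs, 8.62% of other starts and 36.1% of distal regions. For the ATF4-CEBP composite the shares were 0.602%, 0.878% and 4.42%, for the TCF4 E-box 11.2%, 16.3% and 29.3%, and for CTCF, the insulator protein, 2.17%, 3.85% and 7.42%. Base composition differed along with these shares: the median GC content was 66.7% at pairs, 69.2% at other starts and 47.8% at distal regions, and the median CpG observed over expected was 0.920, 0.874 and 0.200.

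**Figure D3:**
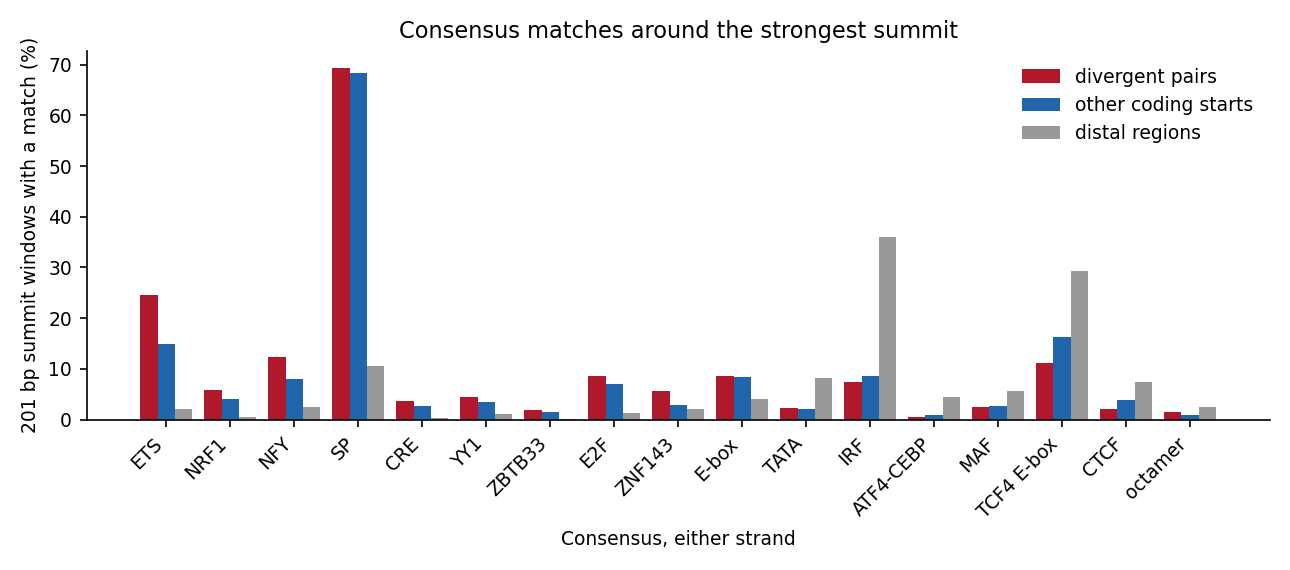
Share of windows reaching 100 bp to each side of the strongest summit with a match to each consensus on either strand (y axis, percent; x axis, consensus name), for divergent pairs (red), other coding starts (blue) and distal regions (grey). ETS, NFY, NRF1 and ZNF143 bars are higher at pairs than at other starts, and IRF and TCF4 E-box bars are highest at distal regions.

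Almost every open pair stayed open after CB-6644. A peak was called at 821, 822 and 821 of 887 pairs in CB-6644 replicates 1 to 3, and at 826, 827 and 825 in DMSO replicates 1 to 3. The shares were 92.6% ± 0.065 (SD, n = 3) and 93.1% ± 0.113 (SD, n = 3), a difference of -0.526 percentage points, and the groups did not overlap. With the same number of top peaks taken from every list, that difference was 0. A peak in all 6 libraries was found at 814 pairs, in none at 57 and in 1 to 5 libraries at 16. Of the 830 pairs with any peak, 98.1% had it in all 6 libraries, against 89.1% of other coding starts, 41.2% of distal regions and 47.4% of all features.

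No pair was called in every library of 1 group while missing from every library of the other. Over all features with a peak in any library, 4.5% were called in DMSO only and 0.584% in CB-6644 only. Among other coding starts these counts were 51 and 6 of 10482. Among the nearest cases were LGI4/FXYD7, called in DMSO replicates 1 and 3 only, H2AC25/H2BC26, a histone pair, and ZNF214/NLRP14, a zinc finger gene beside an NLRP family gene. The last pairs named were each called in 3 DMSO libraries and, with CB-6644, in replicate 2 only. H2AC25/H2BC26 had fold enrichments of 9.31, 7.54 and 8.79 in DMSO replicates 1 to 3 and 7.66 in CB-6644 replicate 2, so the called values overlapped. ZNF214/NLRP14 had 8.85, 10.05 and 9.42 in DMSO replicates 1 to 3 and 7.45 in CB-6644 replicate 2, which was below all of them.

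Of the 57 pairs without a peak, 3 held a readthrough gene. The 5 with the closest starts were PLCZ1/CAPZA3, both sperm genes, CSAG1/MAGEA12, both cancer-testis genes, ZNF829/ZNF568, PRSS54/GINS3 and CFAP90/MTRR. CSAG1 and MAGEA12 lie among near-identical copies on the X chromosome, so their reads are uncertain. A peak in all 6 libraries lay within 500 bp of the Ensembl canonical start of either gene in 17 of the 57. Among them were MTRR, the methionine synthase reductase, and GINS3. Their canonical starts lie 17962 and 97391 bp from their gene-record starts. At 36 there was no peak at either canonical start in any library.

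The strongest pairs were PDCD10/SERPINI1, FHIP1B/CNGA4, TTC13/ARV1, IQCB1/EAF2 and CREB3L2/AKR1D1, with mean percentiles of 99.8 to 99.9. ARV1 acts in sterol transport and CREB3L2 is a membrane-bound transcription factor of the secretory pathway. The pile-up, the number of fragments over the summit, was recovered from each peak's fold enrichment and p-value. At PDCD10/SERPINI1 it was 635, 349 and 755 in CB-6644 replicates 1 to 3 and 655, 801 and 769 in DMSO replicates 1 to 3. The median over all pairs with a peak was 107 in CB-6644 replicate 2 and 181 to 286 in the rest. These values are not scaled between libraries. In bulk samples, fewer cells with an open site and less opening per cell cannot be told apart.

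Peak strength at the pairs was then compared between the groups. The fold enrichment of the strongest peak, which is the pile-up over the local background of the peak caller, was tested with limma on a log2 scale after quantile normalisation. The test covered 42340 features with a peak in all 6 libraries, adjusted over all of them by the Benjamini-Hochberg method. No pair passed an adjusted p of 0.05 in either direction. Over all features, 0.368% rose and 0.487% fell. At an unadjusted p under 0.05 there were 33 of 814 pairs, or 4.05%, against 14.4% of all features. In data simulated with the spread shuffled over all features, the test recovered 16 of 100 features changed by 1 on the log2 scale. It recovered 1 of 100 changed by 0.5, with 0 false calls. The median standard error was 0.13 at pairs and 0.17 over all features, so these rates need not hold at pairs.

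The measured differences at pairs were small. Their median was 0.10 on the log2 scale, CB-6644 minus DMSO, with a 5th to 95th percentile of -0.15 to 0.34. A difference over 0.5 in size was seen at 8 pairs, or 0.983%, against 2.53% of other starts and 12.6% of distal regions, and none exceeded 1. The median standard error was 0.13. The difference was positive at 629 of 814 pairs, or 77.3%, and at 71.5% of other starts and 48.0% of distal regions. With the recovered pile-up in place of fold enrichment, a choice made after seeing the data, it was positive at 51.4% of pairs, and no pair passed in limma in either direction, where 3.77% and 4.2% of all features did. There 34 pairs were at an unadjusted p under 0.05, or 4.18%, against 22.2% of all features. Groups did not overlap in fold enrichment at 91 pairs with CB-6644 above, or 11.2%, and 17 below, or 2.09%. The same shares over all features were 10.7% and 10.6%.

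**Figure D4:**
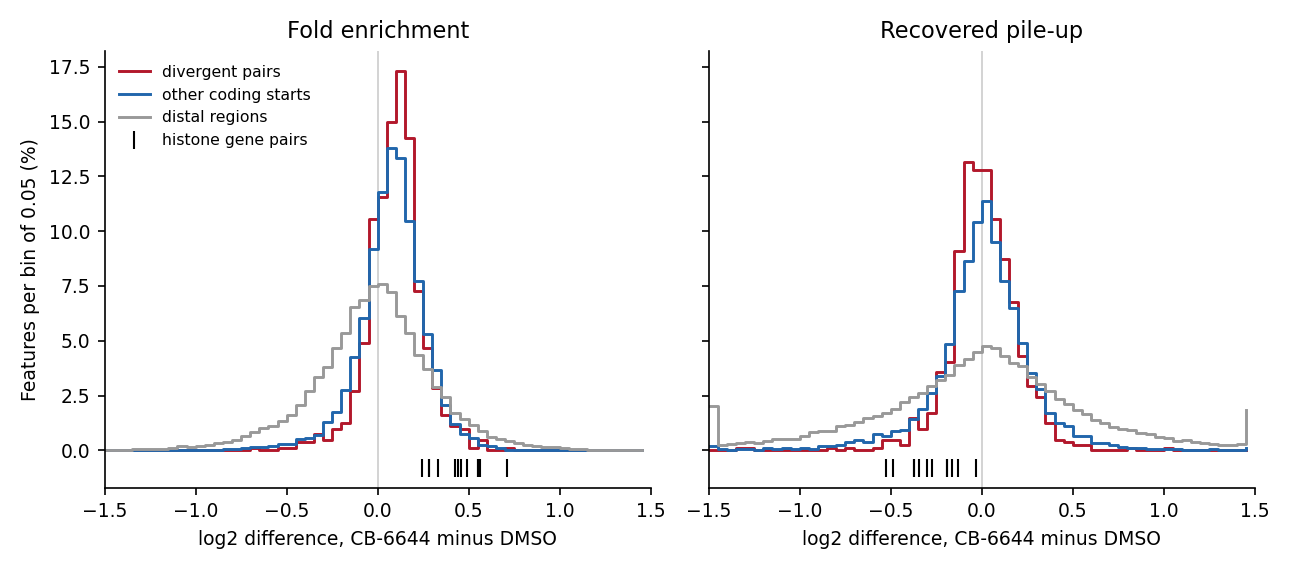
Distribution of log2 differences, CB-6644 minus DMSO (x axes), as the percent of features per bin of 0.05 (y axis), for fold enrichment (left) and recovered pile-up (right), at pairs, other coding starts and distal regions; the end bins hold all values past 1.5, and ticks mark the histone pairs. The pairs have 5th to 95th percentiles of -0.15 to 0.34 on the left and -0.27 to 0.30 on the right, and the histone ticks lie above 0 on the left and below 0 on the right.

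Each group held 1 short-fragment library, so the test was repeated with the fragment set as a term. Then 12 pairs rose and 3 fell, or 1.47% and 0.369% of pairs, against 4.17% and 5.97% of all features. The same fit on the recovered pile-up called 17 pairs higher and 18 lower, where 9.54% and 10.6% of all features passed. In the 4 other libraries alone, 2 of 819 pairs were higher and 1 lower, where 2.8% and 4.14% of all features passed. At an unadjusted p under 0.05 there were 63 pairs, or 7.69%, against 23.6%. Only 4 pairs passed in both fits with the fragment set, in the same direction each time. They were NME7/BLZF1 and NMRK1/OSTF1, which were higher, and IGBP1C/RAD51C and TEX14/RAD51C, which were lower and share 1 peak. The share of all features that passed in both was not taken, so this count cannot be set against other features. In CB-6644 replicate 2 the local background could not be resolved at 59 of 814 fitted pairs, both RAD51C pairs among them, and in the other libraries at 1 to 6. Where it could not, the pile-up given is the fold enrichment minus 1, so that the measures are not separate there. NME7 is a subunit of the gamma-tubulin ring complex, BLZF1 a Golgi protein, NMRK1 a kinase of NAD synthesis and OSTF1 an adaptor protein. RAD51C acts in homologous recombination.

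The RAD51C region had fold enrichments of 25.3, 24.1 and 23.9 in CB-6644 replicates 1 to 3 and 37.7, 29.4 and 29.3 in DMSO replicates 1 to 3. All CB-6644 libraries lay below all DMSO libraries. Without CB-6644 replicate 2 the log2 difference was -0.21. With all libraries the log2 difference was -0.32 (SE 0.11), with an adjusted p of 0.20 in limma without the fragment set and 0.032 with it. In the pile-up it was -0.54, with adjusted p of 0.021 in limma with the fragment set. The background in CB-6644 replicate 2 could not be resolved there, so its pile-up was not recovered. In the 4 long-fragment libraries the pile-up difference was -0.37 with an adjusted p of 0.13. NME7/BLZF1 had fold enrichments of 29.9, 60.2 and 29.7 with CB-6644 and 43.2, 29.1 and 25.9 with DMSO, and the groups overlapped, before and after normalisation. Its log2 difference was 0.26 (SE 0.13), with an adjusted p of 0.39 in limma and 0.037 with the fragment set, and the difference was 0.09 without CB-6644 replicate 2.

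THYN1/ACAD8 had the smallest p. ACAD8 is a mitochondrial enzyme of valine breakdown. Its fold enrichments were 24.6, 40.4 and 25.1 with CB-6644 and 27.7, 19.4 and 18.9 with DMSO. Before normalisation DMSO replicate 1 lay among the CB-6644 values and the other DMSO libraries below them. The log2 difference was 0.48 (SE 0.12), with an adjusted p of 0.09 in limma and 0.006 with the fragment set. In the pile-up it was 0.22. The next pairs by p on that side were PLAGL2/POFUT1, GAK/TMEM175 and MFSD9/TMEM182, with log2 differences of 0.40, 0.23 and 0.39, which passed with the fragment set. THYN1/ACAD8 and PLAGL2/POFUT1 were also the pairs that passed in the long-fragment libraries alone, at adjusted p of 0.033 and 0.038 in limma. GTPBP2/MAD2L1BP, a factor of ribosome rescue beside a regulator of the spindle checkpoint, was at 0.52 (SE 0.18) in fold enrichment, past the threshold with the fragment set, and 0.08 in pile-up.

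On the other side AREL1/FCF1 was at -0.39 (SE 0.13), and passed with the fragment set. FCF1 acts in ribosomal RNA processing. SMC1B/RIBC2 and DHX32/FANK1 were at -0.44 and -0.41 and did not pass with all 6 libraries, with or without the fragment set. SMC1B/RIBC2 was the lower pair of the long-fragment libraries, at -0.56 with an adjusted p of 0.028 in fold enrichment and -0.66 with 0.041 in pile-up, both in limma. SMC1B is a cohesin subunit of meiosis. SRGAP2B/FAM72D had the lowest difference, -0.69 (SE 0.54), and it lies in a segmental duplication with near-identical copies, where its reads are uncertain. CB-6644 replicate 2 alone was low there, at 10.8-fold against 31.5 and 40.2 in the other CB-6644 libraries and 41.5 to 48.0 with DMSO. It passed in the pile-up with the fragment set, but the pile-up of CB-6644 replicate 2 was not recovered there. The pair was named after its value was seen.

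Replication-dependent histone genes had the highest median difference in fold enrichment of the 10 gene lists. They encode the core histones of S phase and sit in clusters, many as divergent H2A/H2B pairs. Of 69 genes, 27 stood in pairs, or 39.1%, against 8.54% of all coding genes. They made 15 pairs, with a peak in all 6 libraries at 12, in some at 2 and in none at H2AC1/H2BC1, a testis-specific pair. In fold enrichment all 12 fitted pairs were higher with CB-6644, with a median of 0.45 and a range of 0.24 to 0.71, beside a median of 0.02 over all features. The 12 pairs rested on 10 different peaks, and groups did not overlap at 9 of the 12, with CB-6644 above at 10.7% of all features. None passed the test. H2BC21/H2AC20 and H2BC11/H2AC11 passed with the fragment set, at adjusted p of 0.035 and 0.045 in limma.

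The pile-up at the same peaks went the other way. All 12 were lower with CB-6644, with a median of -0.29 and a range of -0.53 to -0.03, beside 0.02 over all features, and the groups overlapped at all of them. None passed the test in limma, and 3 passed with the fragment set, namely H2BC12/H2AC12 and the H3C12/H2BC17 and H2AC17/H2BC17 pairs that share a peak, all lower, where 10.6% of all features were called lower. Fold enrichment divides the pile-up by the local background, which is given here beside both. At the fitted histone pairs its median was 1.36, 0.972 and 1.36 times that at all fitted pairs in CB-6644 replicates 1 to 3, and 1.65, 1.89 and 2.17 times in DMSO replicates 1 to 3, so the groups did not overlap. Its part in the result was not tested. In CB-6644 replicate 2 the recovered pile-up at H2BC13/H2AC13, 9.13, was not a whole number and its background could not be resolved.

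H2BC11/H2AC11 shows both measures. Its fold enrichments were 16.2, 18.1 and 16.6 with CB-6644 and 15.6, 13.5 and 12.03 with DMSO, every CB-6644 library above every DMSO library. The log2 difference was 0.46 (SE 0.16), with an adjusted p of 0.21 in limma. Its pile-up after normalisation, on the log2 scale, was 7.74, 7.03 and 7.82 with CB-6644 and 7.43, 7.92 and 8.06 with DMSO, so the groups overlapped. That difference was -0.27 (SE 0.23). H2BC21/H2AC20 had fold enrichments of 11.6, 23.2 and 10.8 with CB-6644 and 11.05, 8.18 and 8.10 with DMSO. CB-6644 replicate 2 was the highest. The log2 difference was 0.71 (SE 0.27), with an adjusted p of 0.27 in limma, and 0.43 without that library.

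The 28 fitted starts of histone genes outside the pairs had a median difference of 0.18 in fold enrichment, positive at 21, and of -0.53 in pile-up, positive at 2. In the pile-up 3 of the 28 passed the test in limma, against 3.77% higher and 4.2% lower over all features. In fold enrichment 0 passed, against 0.368% and 0.487%.

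**Figure D5:**
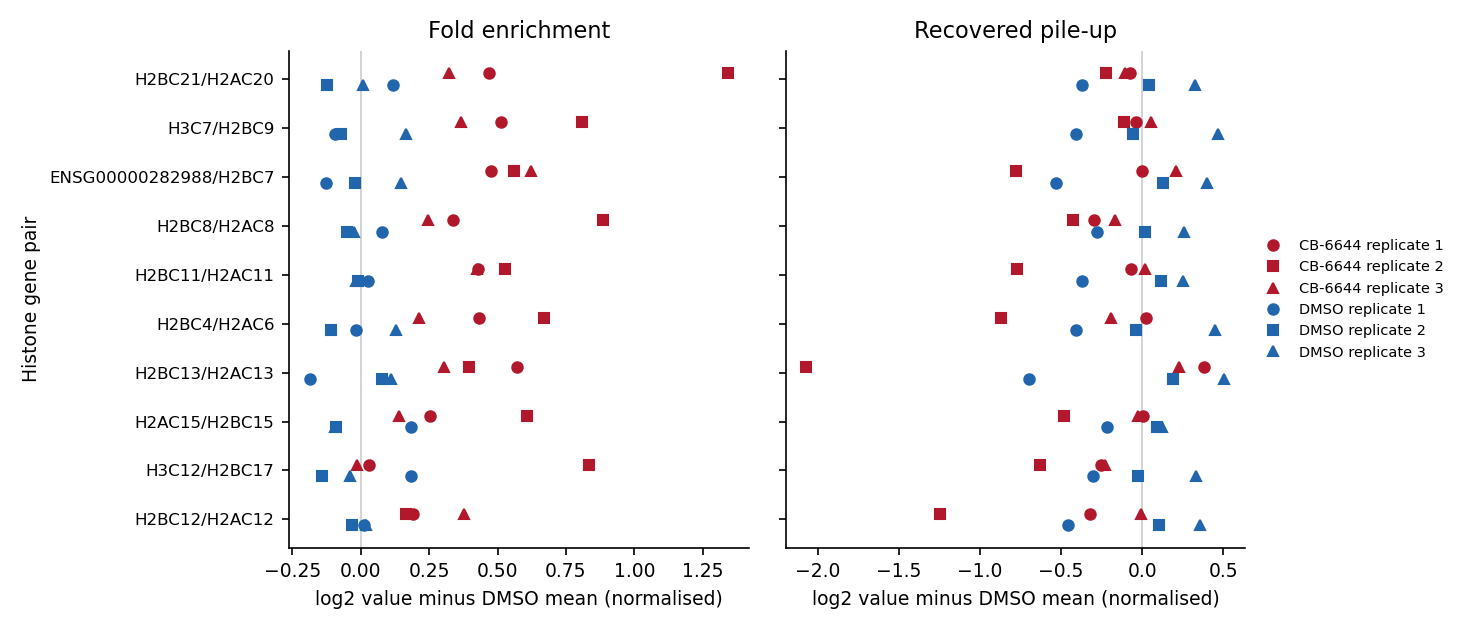
Normalised log2 fold enrichment (left) and recovered pile-up (right) at the 10 different histone peaks (y axis), as the value in each library minus the mean of the DMSO libraries (x axes); red is CB-6644 and blue is DMSO. CB-6644 libraries lie to the right of DMSO at 8 of the peaks on the left panel, and on the right panel the groups overlap at all 10.

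Histone summit windows also carried TATA letters and the octamer, which were rare over the pairs as a whole. Of the 14 histone pairs with a peak, 7 held TATA letters, among 19 pairs in all, and 6 held the octamer, the OCT1 site of H2B promoters, among 12 pairs in all. NFY letters stood in 6 of the 14, against 12.4% of all pairs with a peak, and IRF letters in 5, against 7.47%. ETS letters stood in 0. Some histone pairs share a peak, so a match can be counted more than once. The octamer was added to the search after seeing the data. The same letters appear in capitals in the H2BC11/H2AC11 and H2BC21/H2AC20 sequences above.

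Genes for DNA replication and repair stood in pairs at 46 of 147, or 31.3%. They made 45 pairs, 42 with a peak in all 6 libraries, and the median of their mean percentile was 95.04. Their median difference was 0.11 in fold enrichment and 0.00 in pile-up. None passed, and only the RAD51C pairs passed with the fragment set on fold enrichment. NPAT/ATM pairs a histone gene activator with the kinase of the double-strand break response, and its pile-up was 419, 216 and 546 with CB-6644 and 455, 635 and 570 with DMSO. LIPT2/POLD3 was the strongest, with a subunit of DNA polymerase delta. PRKDC/MCM4 pairs the DNA-PK kinase with a helicase subunit. Its gene-record starts are 7 bp apart and its Ensembl canonical starts 805 bp apart. Its log2 difference in fold enrichment was 0.29 (SE 0.13), with adjusted p of 0.33 in limma.

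Genes of mitochondrial ribosomes and the respiratory chain gave 54 pairs, which held 23.8% of the list. A peak was called in all 6 libraries at 53 of them, with a median difference of 0.05 in fold enrichment. TFB2M/CNST, with a mitochondrial transcription factor, and MRPL50/ZNF189, with a mitochondrial ribosomal protein, were the strongest. Translation genes gave 28 pairs and a median of 0.11. Proteasome genes gave 6 pairs, positive at all 6 with a median of 0.17 and positive at 4 of 6 in pile-up. Zinc finger genes gave 32 pairs, at 6.41% of the list, with a median of 0.06. No pair of these lists passed the test.

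Genes of RUVBL1/2 complexes and their clients gave 10 pairs, and all had a peak in all 6 libraries. Their differences ran from -0.10 to 0.29 with a median of 0.07, and none passed with or without the fragment set, in either measure. GYS1/RUVBL2 pairs glycogen synthase with the drug target, and its sequence is printed above. Its fold enrichments were 21.2, 32.3 and 22.7 with CB-6644 and 30.2, 22.5 and 20.2 with DMSO, with overlapping groups and a log2 difference of 0.11 (SE 0.11). PFDN2/NIT1 and WDR46/PFDN6 hold prefoldin subunits that also work with R2TP, TTI1/RPRD1B a partner of the PIKK kinases and NUFIP1/GPALPP1 a factor for snoRNP assembly. DNAAF10/PNO1 was also in the list. MCRS1/PRPF40B and MBTD1/UTP18 hold subunits of INO80 and TIP60. PRKDC/MCM4 and NPAT/ATM complete the list.

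Genes of the secretory pathway and unfolded protein response, which plasma cells use heavily, gave 5 pairs. The median of their mean percentile was 99.4, and the lowest was 89.5 at ALG2/SEC61B. PNPLA8/DNAJB9 and THAP5/DNAJB9 share a peak at DNAJB9, a chaperone of the endoplasmic reticulum. Its pile-up was 582, 255 and 652 with CB-6644 and 600, 735 and 671 with DMSO. Over the 5 pairs the differences in fold enrichment ran from 0.10 to 0.19. In pile-up their median was -0.03, and the difference was positive at 1 of the 5. Interferon and antigen processing genes gave 5 pairs, 4 of them open in all libraries. PATL2/B2M, with the light chain of MHC class I, and IFIH1/GCA, with a sensor of viral RNA, were the strongest, and neither passed.

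Textbook divergent pairs were looked up by name. PPAT/PAICS, both enzymes of purine synthesis, had gene-record starts 126 bp apart and canonical starts 645 bp apart. Its pile-up was 344, 255 and 481 with CB-6644 and 486, 522 and 440 with DMSO. TK1/AFMID, with thymidine kinase, had fold enrichments of 32.4, 45.4 and 31.9 with CB-6644 and 43.6, 33.4 and 28.0 with DMSO, with overlapping groups and a log2 difference of 0.07 (SE 0.07). TMEM258/FEN1, with the flap endonuclease, was at 0.17 (SE 0.12). COL4A6/COL4A5, a pair of basement membrane collagens, had a weak peak in 5 libraries and none in CB-6644 replicate 1. COL4A4/COL4A3 was open in all 6. HSPD1/HSPE1, TAP1/PSMB9, PARP9/DTX3L, COL4A1/COL4A2, SURF1/SURF2 and RANBP1/TRMT2A did not meet the rule, since their gene records overlap at the 5' ends.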

How the data were processed

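Chromatin accessibility was measured by Omni-ATAC in MM.1S cells, with 3 CB-6644 and 3 DMSO libraries grouped by GEO's labels. Alignment by the authors was to hg38, and they called peaks library by library. The submitters' processing notes name Bowtie2 2.4.2 and MACS3 3.0, and caller settings are not given in the sources used here. The deposited lists hold for each peak a fold enrichment, which is a ratio of pile-up to local background, with no scaling between libraries. They also hold the -log10 p and -log10 q of the summit, and a score made from the latter, as the authors' caller wrote them. Read counts are not in these files, so the edgeR test of the study was not run.

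Pairs and gene lists were chosen with earlier results of these data known. Of the peaks on the autosomes, X and Y, 0 ran past a chromosome end of hg38. An overlap of 1 bp counted. The strongest peak was that with the highest -log10 p. Features were the 887 pair regions, windows of 500 bp on each side of the other coding starts, and merged peaks touching neither. limma 3.58.1 in R 4.3.3 used trend and robust moderation, with two-sided p-values, and was tested on simulated data of 42340 features. The pile-up and the local background were solved from fold enrichment and -log10 p from a Poisson upper tail, each raised by 1 in the ratio, a measure added after seeing the data, as was the octamer. At pairs, 92.5% to 99.6% of pile-ups came within 0.05 of a whole number, with the lowest share in CB-6644 replicate 2. Intervals are 95% Wilson intervals and cover counting error only. They count each start as separate, though both starts of a pair often share a peak. Alternatives were another normalisation, measure, filter, threshold, flank, distance and start definition, a replicate block, the fragment set and leaving out each library. The pairs named were textbook pairs, those with the smallest p in each direction (none passed), the strongest and the closest without a peak. Also named were the strongest of some lists, all of the RUVBL1/2 list, and some past the threshold only with the fragment set.
Some genes are not reported here.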

Additional observations from a re-analysis of the deposited data

How the results depend on the processing

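Fold enrichment and pile-up gave different directions, and the cause was not tested. The share of fitted pairs higher with CB-6644 was 77.3% in the analysis reported. It was 88.5% with median centring, 48.5% with the -log10 p and 51.4% with the recovered pile-up, with or without the fragment set. It was 56.5% with the pile-up in the long-fragment libraries only. Leaving out each library gave 64.8% to 81.0%, lowest when CB-6644 replicate 2 was dropped. The median difference of the histone pairs was 0.45, and it was -0.044 with the -log10 p, -0.29 with the pile-up, -0.29 with the fragment set added and -0.27 in the long-fragment libraries. Leaving out each library gave 0.42 to 0.51. In the same order H2BC11/H2AC11 was at -0.10, -0.27, -0.27 and -0.21. H2BC21/H2AC20 stayed positive with the -log10 p, at 0.26, and was at -0.13, -0.13 and -0.27 in the 3 pile-up fits. The pile-up fits were chosen after seeing the data.

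No pair passed in limma, nor on leaving out each library, which gave 0 to 0. With the fragment set, 12 were higher and 3 lower, where 4.17% and 5.97% of all features passed. In the long-fragment libraries only, 2 were higher and 1 lower of 819, where 2.8% and 4.14% of all features passed. The pile-up with the fragment set gave 17 and 18, where 9.54% and 10.6% of all features passed. In long-fragment libraries the pile-up gave 10 and 7. The share over all features was not taken for that fit, so these counts cannot be set against other features. Whether the replicate numbers pair the samples could not be decided. Deviations of same-numbered libraries correlated at -0.47, -0.33 and 0.32, but the signs followed the fragment set. Across the groups, short with short gave 0.56, long with long 0.25 to 0.37, and short with long -0.47 to -0.33. The short-fragment library has a different replicate number in each group, so a pairing by number could not be told from the fragment set. A fit with the replicate block called 0 pairs higher and 0 lower.

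Pairs called in CB-6644 only numbered 1 with equal numbers of top peaks and 4 with the top 20000 peaks. Pairs called in DMSO only numbered 2 in the long-fragment libraries, and 0 to 2 on leaving out each library. They numbered 2 when CB-6644 replicate 2 was dropped and 1 when DMSO replicate 2 was. The share over all features was not taken at these settings, so these counts cannot be set against other features. The share of pairs with a peak differed between groups by 0 points with equal top peaks, -0.0752 with the summit inside the region, -0.676 with a flank of 100 bp and -0.411 with a distance of at most 500 bp. Pairs exceeded starts with neither by 42.0 points in windows of 100 bp and 43.8 points with the top 20000 peaks. Summits lay between the starts at 76.7% with canonical starts and 71.3% at distances over 100 bp. The ETS difference between pairs and other starts was 6.03 points in the shorter windows. Depth is unknown, and a peak list shows no signal below the caller's threshold, so a pair without a peak is not shown to be closed.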
